A study of Homo sapiens with 6 samples.

Results

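The genes described are SREBF1, a transcription factor gene of fatty acid synthesis, and 9 enzyme genes of fatty acid synthesis and desaturation, ACLY, ACSS2, ACACA, FASN, SCD, FADS1, FADS2, ELOVL5 and ELOVL6. They were chosen by name, with earlier results of these data known, and are 10 of the 23024 genes with a deposited value. All 10 were among the 11152 genes that averaged at least 1 FPKM and were tested. FPKM is the number of reads or fragments of a gene scaled by its length and by the total of the library, so levels of different genes can be compared on it. RNA sequencing covered 5637 cells, an established human bladder carcinoma line. In 3 libraries the cells carried a hairpin that targets RAD51C (named sh-RAD51C and labelled as a knockdown), and in 3 libraries they were named NC and labelled as wild type. Per the labels, all RNA came from transfected cells. The labels give neither the hairpin sequence nor the meaning of NC, nor whether all 3 sh-RAD51C libraries carry the same hairpin. Nothing says whether libraries came from separate cultures, so the spread on which p-values rest may be technical.

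Fatty acids are built from acetyl-CoA in the cytosol. ATP citrate lyase and acetyl-CoA synthetase supply the acetyl-CoA, acetyl-CoA carboxylase turns it into malonyl-CoA, and fatty acid synthase joins the units into palmitate. Elongases then lengthen the chain and desaturases place double bonds in it, while the transcription factor SREBP-1, encoded by SREBF1, is known to drive the genes of all these steps and is itself released from the endoplasmic reticulum under the control of SCAP and the INSIG proteins. Tumour cells, bladder carcinoma among them, are known for making their own fatty acids.

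The inferred depth was 37104318 to 38079825 reads in sh-RAD51C libraries and 36068282 to 37560184 reads in NC libraries, and a member had between 963 and 23394 inferred reads in a library. RAD51C, a homologous recombination gene, held 3.51, 3.09 and 2.95 FPKM in sh-RAD51C libraries 1, 2 and 3, against 14.7, 13.2 and 13.6 FPKM in NC libraries 1, 2 and 3. Its mean in sh-RAD51C was 23% of that in NC (limma adjusted p = 7.16e-09). All 9 markers of urothelial epithelium fixed for the cell line averaged at least 1 FPKM and summed to 2660 to 2770 FPKM in sh-RAD51C and 2910 to 3000 FPKM in NC. They moved in opposite directions: 5 were called higher (KRT7, KRT18, GATA3, EPCAM and KRT8, log2 fold changes 0.75, 0.71, 0.6, 0.5 and 0.33) and 4 lower (KRT5, TP63, KRT19 and CDH1, log2 fold changes -1.19, -0.67, -0.66 and -0.11). The CDH1 call was lost without NC replicate 1 (limma adjusted p = 0.0939), NC replicate 3 (0.0689) or sh-RAD51C replicate 1 (0.0511). It was also lost with median ratio scaling (limma adjusted p = 0.09) and without a variance trend (0.057). The most abundant marker, KRT19, averaged 682 FPKM in sh-RAD51C and 1070 FPKM in NC, and KRT5 averaged 301 FPKM in sh-RAD51C and 686 FPKM in NC. Of 8 markers of adipocytes and hepatocytes, both strongly lipogenic cell types, 3 had a value (PLIN1, CIDEC and ALB), none above 0.0944 FPKM in any library. They summed to 0.0268 to 0.122 FPKM in sh-RAD51C and 0.0969 to 0.132 FPKM in NC.

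The desaturases and the transcription factor gene were lower in the knockdown libraries, whereas the elongases ELOVL5 and ELOVL6 and the citrate lyase gene ACLY were not. In all, 7 of the 10 genes were lower, 2 were higher and 1 was not called, at an adjusted p under 0.05 in limma. Over all genes tested, 26.2% were lower and 23.2% higher by the same rule, and 49.4% were called in either direction. The libraries of both groups did not overlap for the 9 called genes, 7 below and 2 above, where the same held for 30.8% and 27.6% of all genes tested, or 58.4% in either direction. The median log2 fold change was -0.35 for the 10 genes, beside -0.01 for all genes tested. Ranked among all log2 fold changes from the lowest up, SCD stood at percentile 0.762, FADS2 at 1.8 and SREBF1 at 3.15. In bulk RNA, fewer cells of a kind and less RNA per cell cannot be told apart. The urothelial markers moved both ways beside these values, 5 higher and 4 lower, and their part in them was not tested.

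**Figure D1:**
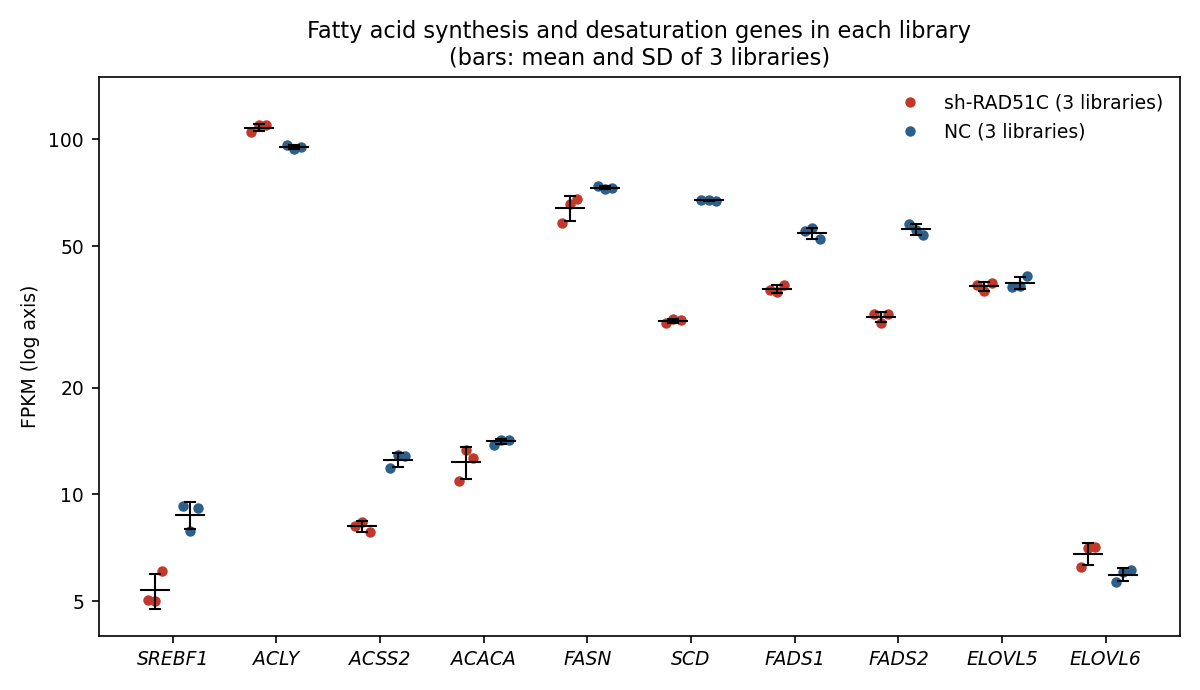
FPKM of each gene (log axis) in the 3 sh-RAD51C libraries and, to their right, the 3 NC libraries, with the mean and SD of each group as bars. SCD, FADS1 and FADS2 sit between 30.4 and 39 FPKM in sh-RAD51C and between 52.4 and 67.4 FPKM in NC, and for ELOVL5 the groups overlap.

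Promoter sequences of 4 genes that were lower in sh-RAD51C are shown to set out the motifs in front of their starts. SCD has the largest fall of the 10 genes, FADS1 and SREBF1 stand for the other desaturases and the transcription factor, and SREBF2 is the paralog of SREBF1. Each holds the 250 bases before the gene start as given by RefSeq on GRCh38.p14, 5′ to 3′ on the strand of the gene, with capitals for the CCAAT box, the GC box GGGCGG and the sterol regulatory element core TCACNCCAC, on either strand.
SCD: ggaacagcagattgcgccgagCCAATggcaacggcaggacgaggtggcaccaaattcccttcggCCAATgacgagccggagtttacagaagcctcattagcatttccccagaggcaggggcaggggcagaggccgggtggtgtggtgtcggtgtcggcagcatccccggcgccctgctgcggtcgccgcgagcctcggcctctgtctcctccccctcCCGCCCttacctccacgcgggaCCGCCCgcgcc
FADS1: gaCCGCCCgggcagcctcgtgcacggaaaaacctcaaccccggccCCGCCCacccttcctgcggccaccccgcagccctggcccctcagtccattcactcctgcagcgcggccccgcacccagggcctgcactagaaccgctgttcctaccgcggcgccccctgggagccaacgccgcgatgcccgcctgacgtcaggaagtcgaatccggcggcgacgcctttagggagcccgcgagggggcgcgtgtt
SREBF1: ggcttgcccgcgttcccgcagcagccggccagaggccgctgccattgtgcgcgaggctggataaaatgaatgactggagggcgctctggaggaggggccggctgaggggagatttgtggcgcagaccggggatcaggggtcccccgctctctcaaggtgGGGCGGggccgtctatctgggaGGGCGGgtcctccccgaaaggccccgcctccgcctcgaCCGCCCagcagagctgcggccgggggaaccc
SREBF2: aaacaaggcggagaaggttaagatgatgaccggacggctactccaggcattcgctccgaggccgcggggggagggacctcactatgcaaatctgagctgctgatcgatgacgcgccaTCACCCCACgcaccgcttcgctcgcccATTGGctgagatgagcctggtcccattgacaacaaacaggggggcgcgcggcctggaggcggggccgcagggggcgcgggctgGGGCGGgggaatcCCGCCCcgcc
The stretches lie at chr10:100346983-100347232 on the plus strand for SCD, chr11:61817004-61817253 on the minus strand for FADS1, chr17:17836987-17837236 on the minus strand for SREBF1 and chr22:41832855-41833104 on the plus strand for SREBF2. GENCODE gene bounds differ from these RefSeq starts, with FADS1 reaching 61829318 and SCD beginning at 100347124. By GENCODE bounds the whole FADS1 stretch and part of each other stretch lie inside the gene.

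In the SCD promoter the CCAAT boxes begin 229 and 186 bases before the start, and GC boxes begin 33 and 11 bases before it. SREBF2 holds the sterol regulatory element core, beginning 133 bases before its start, with a CCAAT box on the opposite strand 106 bases before it. The RefSeq table gave 14 windows of 300 bases (250 before and 50 after a start) for 9 of the 10 genes, and none for FASN. The core TCACNCCAC was in 0 of the 14 windows, beside 1.13% of all 35116 windows. CCAAT was in 8 of 14 (57.1%, against 34.6% of all), GGGCGG in 11 of 14 (78.6%, against 45%) and the E-box CANNTG in 5 of 14 (35.7%, against 68.7%). A single fixed pattern in 300 bases misses variant and more distant sites, so its absence does not show that a gene lacks SREBP sites. For SREBF1 only the window at the start 17836986 was searched, and any other start of that gene was not. Several windows belong to the same gene, so these shares are descriptions. All motifs were searched on both strands, and matches of different motifs may overlap.

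SREBF1 (ENSG00000072310.16, chromosome 17 from 17810399 to 17837002, minus strand) encodes SREBP-1, the activator of fatty acid synthesis genes. It held 5.03, 5 and 6.07 FPKM in sh-RAD51C libraries 1, 2 and 3, against 9.27, 7.87 and 9.15 FPKM in NC libraries 1, 2 and 3. Every sh-RAD51C library lay below every NC library. Its inferred reads were 1012, 979 and 1218 in sh-RAD51C and 1765, 1560 and 1814 in NC. The mean was 5.37 ± 0.609 FPKM in sh-RAD51C and 8.76 ± 0.775 FPKM in NC (SD, n = 3 each), or -0.62 ± 0.078 as a log2 fold change with its SE (limma adjusted p = 7.01e-05). All fold changes were computed from log2(FPKM + 1), and for low genes this makes them too small. The log2 fold change was -0.7 with a pseudocount of 0.1, -0.71 with limma voom on inferred reads and -0.41 with a pseudocount of 5. The values do not separate the SREBP-1a and SREBP-1c transcripts. In GENCODE, 6.92% of the exonic bases of SREBF1 overlap exons of RAI1 on the opposite strand, which averaged 7.42 FPKM in sh-RAD51C and 8.75 FPKM in NC.

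Other parts of the SREBP system gave mixed values. SREBF2, encoding the paralog that chiefly drives cholesterol synthesis, held 15.8, 16.4 and 17.4 FPKM in sh-RAD51C, against 26.8, 27.2 and 26.2 FPKM in NC (log2 fold change -0.66 ± 0.044, SE; limma adjusted p = 5.57e-07). INSIG1, which retains the SREBP precursors in the endoplasmic reticulum and is itself an SREBP target, held 9.52, 8.54 and 10.4 FPKM in sh-RAD51C, against 13.9, 14.2 and 14.7 FPKM in NC (log2 fold change -0.55, limma adjusted p = 3.06e-05). Both were lower with no overlap between groups. The escort protein gene SCAP and the second retention gene INSIG2 had log2 fold changes of 0.021 and 0.018 (limma adjusted p = 0.734 and 0.774), with 95% intervals of -0.08 to 0.12 and -0.09 to 0.12. The protease genes MBTPS1 and MBTPS2, whose products release the factors, had log2 fold changes of -0.1 and -0.13 (limma adjusted p = 0.087 and 0.127). Without length and GC trends both passed (limma adjusted p = 0.0365 and 0.0364), and MBTPS2 also without sh-RAD51C replicate 3 (0.0338). Without sh-RAD51C replicate 1 they shrank to -0.059 and -0.074, and with a library left out their limma adjusted p reached 0.22 and 0.38. Of the 6 genes of this list 2 were lower (33.3%) and 0 higher, beside 26.2% and 23.2% of all genes tested. The list's median log2 fold change was -0.12.

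SCD (ENSG00000099194.5, chromosome 10 from 100347124 to 100364834, plus strand), whose promoter is shown above, encodes the stearoyl-CoA desaturase that makes oleate and palmitoleate from saturated chains. It held 30.4, 31.1 and 31 FPKM in sh-RAD51C libraries 1, 2 and 3, against 67.4, 67.4 and 67.1 FPKM in NC libraries 1, 2 and 3. The libraries of a group lay close together and the groups far apart. The mean was 30.8 ± 0.4 FPKM in sh-RAD51C and 67.3 ± 0.156 FPKM in NC (SD, n = 3 each), 45.8% of the NC level, or -1.1 ± 0.033 as a log2 fold change with its SE (limma adjusted p = 2.39e-09). Over 17 alternatives its log2 fold change ran from -1.13 to -1.01.

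FADS2 (ENSG00000134824.13, chromosome 11 from 61792980 to 61867354, plus strand) encodes the delta-6 desaturase that starts the conversion of linoleic and alpha-linolenic acid into longer polyunsaturated acids. It held 32.2, 30.4 and 32.3 FPKM in sh-RAD51C, against 57.8, 55.7 and 53.8 FPKM in NC, with a log2 fold change and SE of -0.8 ± 0.041 (limma adjusted p = 7.94e-08). FADS1 (ENSG00000149485.18, chromosome 11 from 61799625 to 61829318, minus strand) encodes the delta-5 desaturase that makes arachidonic and eicosapentaenoic acid later in that route. It held 37.7, 37.1 and 39 FPKM in sh-RAD51C, against 55.1, 56.1 and 52.4 FPKM in NC, with a log2 fold change and SE of -0.51 ± 0.039 (limma adjusted p = 1.59e-06). For both, every sh-RAD51C library lay below every NC library, and the mean in sh-RAD51C was 56.7% of the NC mean for FADS2 and 69.6% for FADS1.

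FADS1 and FADS2 are neighbours on opposite strands and overlap head to head. RefSeq starts FADS1 at 61817003, and the FADS2 starts at 61816203 and 61816404 lie 800 and 599 bases inside it. In GENCODE 490 exonic bases are common to both, 4.79% of those of FADS1 and 4.44% of those of FADS2. Since the strand setting of the counting is not given, reads of this stretch cannot be told apart between them. FADS2 also shares 49 exonic bases with FEN1, which averaged 104 FPKM in sh-RAD51C and 97.4 FPKM in NC. GENCODE lists the pseudogenes SCDP1 of SCD and FADS2P1 of FADS2, and how reads common to such copies were counted is not stated.

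The other desaturase genes did not all share the fall. FADS3 (chromosome 11 from 61873519 to 61892051), the third member of the same gene cluster, held 37.9, 38.3 and 35.5 FPKM in sh-RAD51C, against 32.2, 31.6 and 32.4 FPKM in NC (log2 fold change 0.21, limma adjusted p = 0.00119), and was higher with no overlap between groups. SCD5, the second human stearoyl-CoA desaturase, held 5.35, 5.1 and 4.19 FPKM in sh-RAD51C, against 5.63, 6.04 and 5.92 FPKM in NC (log2 fold change -0.23, limma adjusted p = 0.026). Its call was lost without NC replicate 2 (0.0836), NC replicate 3 (0.0634) or sh-RAD51C replicate 3 (0.0833), where the log2 fold change was -0.21, -0.22 and -0.14, and with no filter on low values (limma adjusted p = 0.109), quantile normalization (0.0584) and median ratio scaling (0.0519). The ceramide desaturase gene DEGS1 was higher by 0.22 on the log2 scale, and CYB5B, encoding an outer mitochondrial membrane cytochrome b5, was lower, with a log2 fold change of -0.24.

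In the list of other desaturases and electron donors 3 of 7 tested genes were higher (42.9%) and 2 lower (28.6%), beside 23.2% and 26.2% of all genes tested. The list's median log2 fold change was 0.14. The count of lower genes was 1 without NC replicate 2, NC replicate 3 or sh-RAD51C replicate 3. Summed over SCD, FADS1 and FADS2, the desaturases made up 30.1%, 28.5% and 29% of the FPKM of the 10 genes in sh-RAD51C libraries 1, 2 and 3, against 42%, 42.1% and 40.8% in NC libraries 1, 2 and 3. The sum of all 10 genes was 333, 346 and 353 FPKM in sh-RAD51C and 430, 425 and 425 FPKM in NC.

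The genes that supply acetyl-CoA went in opposite directions. ACLY (ENSG00000131473.16, chromosome 17 from 41866908 to 41930542, minus strand) encodes ATP citrate lyase, which cleaves citrate exported from mitochondria. It held 105, 110 and 110 FPKM in sh-RAD51C, against 96.4, 94.2 and 95.4 FPKM in NC, and was the most abundant of the 10 transcripts in both groups. All sh-RAD51C libraries lay above all NC libraries, at a log2 fold change and SE of 0.18 ± 0.034 (limma adjusted p = 0.000975), with means 1.14-fold apart.

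ACSS2 (ENSG00000131069.19, chromosome 20 from 34872146 to 34927962, plus strand) encodes the cytosolic and nuclear acetyl-CoA synthetase, which uses acetate. It held 8.17, 8.38 and 7.84 FPKM in sh-RAD51C, against 11.9, 12.9 and 12.8 FPKM in NC. Every sh-RAD51C library lay below every NC library, with a mean at 65% of that in NC and a log2 fold change and SE of -0.56 ± 0.05 (limma adjusted p = 4.81e-06). In the supply list, which holds neither gene, 3 of 11 tested genes were lower (27.3%), 2 higher (18.2%) and the other 6 did not pass. Over all genes tested the shares were 26.2% lower and 23.2% higher. The list's median log2 fold change was -0.03. IDH1, a cytosolic source of NADPH, held a mean of 26.5 FPKM in sh-RAD51C and 39.8 FPKM in NC (log2 fold change -0.57, limma adjusted p = 4.52e-06). ACSS1, the mitochondrial acetyl-CoA synthetase, and SLC25A1, the mitochondrial citrate carrier, had log2 fold changes of -0.35 and -0.17 (limma adjusted p = 0.00247 and 0.00442). Citrate synthase (CS) was higher, at a mean of 95.1 FPKM in sh-RAD51C and 81.8 FPKM in NC. The count of higher genes in this list was 1 without NC replicate 1 or sh-RAD51C replicate 3.

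The carboxylase and the synthase that make palmitate were lower by small amounts. FASN (ENSG00000169710.8, chromosome 17 from 82078333 to 82098332, minus strand), encoding fatty acid synthase, held 58.1, 65.9 and 67.9 FPKM in sh-RAD51C, against 73.9, 72.4 and 73 FPKM in NC (log2 fold change -0.19 ± 0.052, SE; limma adjusted p = 0.00981). ACACA (ENSG00000278540.4, chromosome 17 from 37084988 to 37406818, minus strand), encoding the cytosolic acetyl-CoA carboxylase, held 10.9, 13.3 and 12.7 FPKM in sh-RAD51C, against 13.8, 14.2 and 14.2 FPKM in NC (log2 fold change -0.19 ± 0.064, SE; limma adjusted p = 0.0311). For both, sh-RAD51C replicate 1 was the lowest library, and the groups did not overlap.

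These are the longest of the 10 transcripts, with inferred gene lengths of 8531 bases for FASN and 11427 bases for ACACA. In sh-RAD51C replicate 1, the 3073 tested genes over 6 kb lay by a median of -0.06 (log2) below their group mean and the 2081 genes under 2 kb by 0.058 above it. Genes over 6 kb lay 0.019 and 0.044 above it in sh-RAD51C replicates 2 and 3. Without that library the log2 fold change was -0.13 for FASN (limma adjusted p = 0.0094) and -0.11 for ACACA (0.0658). With each library's length and GC trend removed it was -0.091 for FASN (limma adjusted p = 0.0466) and -0.16 for ACACA (0.012). The ACACA call was also lost without NC replicate 1 (limma adjusted p = 0.052), NC replicate 2 (0.0823) or NC replicate 3 (0.0769), in a range from 0.00819 to 0.125 over 17 alternatives.

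The second carboxylase gene, ACACB, which makes malonyl-CoA at mitochondria, was near 0, at 0.204, 0.238 and 0.2 FPKM in sh-RAD51C, against 0.322, 0.312 and 0.228 FPKM in NC, and was not tested. MID1IP1, whose product promotes polymerisation of acetyl-CoA carboxylase, held a mean of 5.17 ± 0.26 FPKM in sh-RAD51C and 7.74 ± 0.298 FPKM in NC (SD, n = 3 each; log2 fold change -0.5, limma adjusted p = 2.55e-05). MCAT and OXSM, which act in the separate mitochondrial fatty acid synthesis route, had log2 fold changes of 0.2 and 0.19 (limma adjusted p = 0.0221 and 0.0267), with adjusted p up to 0.0984 and 0.0869 over the alternatives, and MECR of the same route had one of -0.024 (0.766). In this list of paralogs and modulators 2 of 4 tested genes were higher (50%) and 1 lower (25%), beside 23.2% and 26.2% of all genes tested. The list's median log2 fold change was 0.08. The count of higher genes was 0 without sh-RAD51C replicate 3 and 1 without NC replicate 1, 2 or 3 or sh-RAD51C replicate 2.

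Neither elongase gene passed the test as lower, and the sign of the small ELOVL5 difference turned with median ratio scaling (log2 fold change 0.0049) and without NC replicate 3 (0.00023). ELOVL5 (ENSG00000012660.13, chromosome 6 from 53267398 to 53349179, minus strand), which lengthens polyunsaturated chains between the FADS2 and FADS1 steps, held 38.9, 37.3 and 39.5 FPKM in sh-RAD51C, against 38.5, 38.6 and 41.1 FPKM in NC. The groups overlapped, and the log2 fold change of -0.03 had a 95% interval from -0.12 to 0.059 (limma adjusted p = 0.564). ELOVL6 (ENSG00000170522.9, chromosome 4 from 110045846 to 110199199, minus strand), which lengthens palmitate to stearate, held 6.23, 7.07 and 7.13 FPKM in sh-RAD51C, against 5.66, 6.04 and 6.14 FPKM in NC. The groups lay close but did not overlap, with a log2 fold change and SE of 0.17 ± 0.061 (limma adjusted p = 0.04).

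The ELOVL6 call lay near the threshold and was lost in most fits that left a library out. Without NC replicate 1, 2 or 3 the limma adjusted p was 0.139, 0.0775 and 0.0534, and without sh-RAD51C replicate 2 or 3 it was 0.122 and 0.127. Without sh-RAD51C replicate 1 it was 0.00787, and the log2 fold change was 0.22. Its direction was the same in all 17 alternatives.

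Among the elongase paralogs, ELOVL1, which makes very long saturated chains, held 37.4, 35.7 and 33.3 FPKM in sh-RAD51C, against 25.9, 24.5 and 29.2 FPKM in NC (log2 fold change 0.41 ± 0.062, SE; limma adjusted p = 0.000264), and was higher with no overlap between groups. ELOVL2, ELOVL4 and ELOVL7 averaged 3.97, 3.04 and 2.17 FPKM in sh-RAD51C and 3.83, 3.04 and 2.23 FPKM in NC. None of these passed the test, with log2 fold changes of 0.043, 0.0021 and -0.027 (limma adjusted p = 0.611, 0.982 and 0.743). Of 10 tested genes of the elongation cycle 4 were higher (40%), 1 was lower (10%) and the other 5 did not pass. Over all genes tested the shares were 23.2% higher and 26.2% lower. The list's median log2 fold change was 0.05. The lower gene was TECR, the reductase that completes each round, at a mean of 45.1 FPKM in sh-RAD51C and 52.6 FPKM in NC, and the dehydratase genes HACD1 and HACD2 were higher by 0.32 and 0.16 on the log2 scale.

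**Figure D2:**
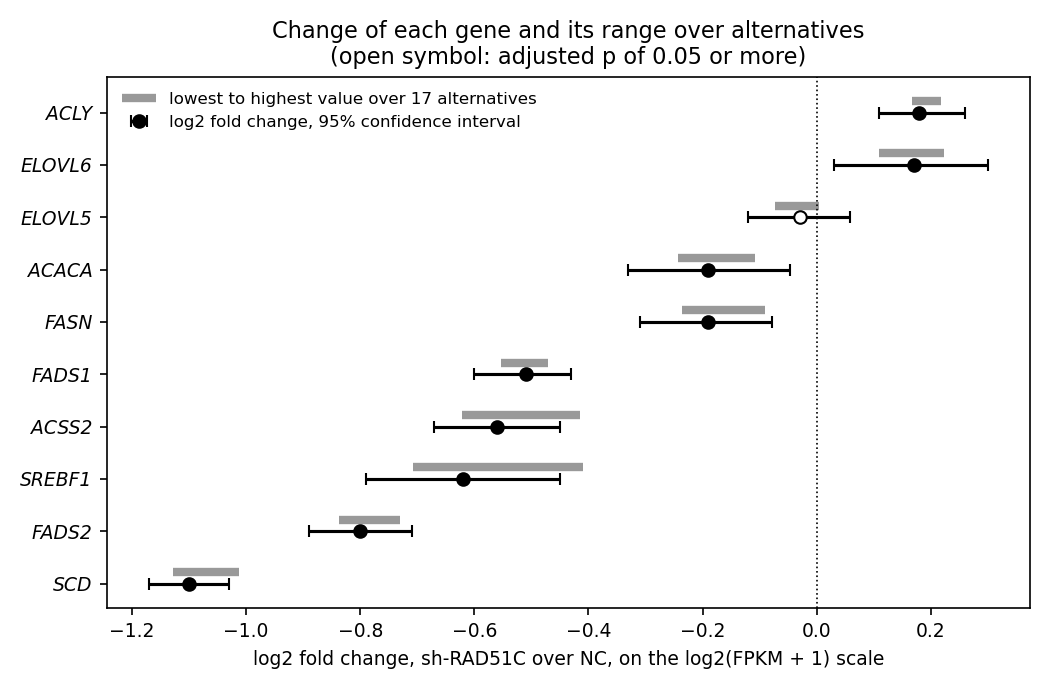
Log2 fold change of each gene, sh-RAD51C over NC, on the log2(FPKM + 1) scale, with its 95% confidence interval (limma) and, in grey, its lowest to highest value over 17 alternatives. SCD, FADS2, SREBF1, ACSS2 and FADS1 lie at -0.51 or below, and the interval of ELOVL5 spans 0.

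SCD, FADS2 and SREBF1 took lower places in the order of transcript levels in sh-RAD51C than in NC, and ELOVL5, FADS1 and ELOVL6 higher ones. FADS1 did so although its mean was lower, at 37.9 FPKM in sh-RAD51C and 54.5 FPKM in NC. In sh-RAD51C libraries the order by mean FPKM was ACLY, FASN, ELOVL5, FADS1, FADS2, SCD, ACACA, ACSS2, ELOVL6 and SREBF1. In NC libraries it was ACLY, FASN, SCD, FADS2, FADS1, ELOVL5, ACACA, ACSS2, SREBF1 and ELOVL6. The ranges of ELOVL5 and FADS1 and of FADS2 and SCD overlapped in sh-RAD51C, and those of FADS2 and FADS1 overlapped in NC; all other neighbours were separate. Among all genes tested, ACLY stood at percentile 94.8 of NC levels, SCD at 92.5, SREBF1 at 50.2 and ELOVL6 at 38.5.

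Ratios between 2 genes of the same library do not depend on a common scale factor of that library. A trend with gene length, such as that of sh-RAD51C replicate 1, can still move them where the genes differ in length. The SCD to FASN ratio, which sets desaturation beside chain synthesis, was 0.522, 0.472 and 0.456 in sh-RAD51C libraries 1, 2 and 3, against 0.912, 0.931 and 0.919 in NC libraries 1, 2 and 3. The FADS2 to FADS1 ratio was 0.855, 0.82 and 0.828 in sh-RAD51C, against 1.05, 0.994 and 1.03 in NC, and every sh-RAD51C library lay below every NC library. ACSS2 stood at 0.0774, 0.0762 and 0.0715 of the ACLY level in sh-RAD51C, against 0.123, 0.137 and 0.134 in NC. SCD stood at 5.68, 6.11 and 7.39 times SCD5 in sh-RAD51C, against 12, 11.2 and 11.3 times in NC.

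The ELOVL6 to ELOVL5 ratio was 0.16, 0.189 and 0.181 in sh-RAD51C, against 0.147, 0.157 and 0.149 in NC. For these 5 ratios the groups did not overlap, and each gave p = 0.1 in an exact two-sided permutation test, the smallest possible with 3 libraries against 3 (0.14 after Benjamini-Hochberg adjustment over 7 ratios). The ACACA to FASN ratio (0.187, 0.202 and 0.186 in sh-RAD51C, against 0.186, 0.196 and 0.195 in NC) and the SREBF1 to SREBF2 ratio (0.319, 0.305 and 0.349 in sh-RAD51C, against 0.346, 0.289 and 0.35 in NC) overlapped between groups (exact permutation p = 0.9 for each). Their mean differences were -0.01 and -0.02 on the log2 scale.

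**Figure D3:**
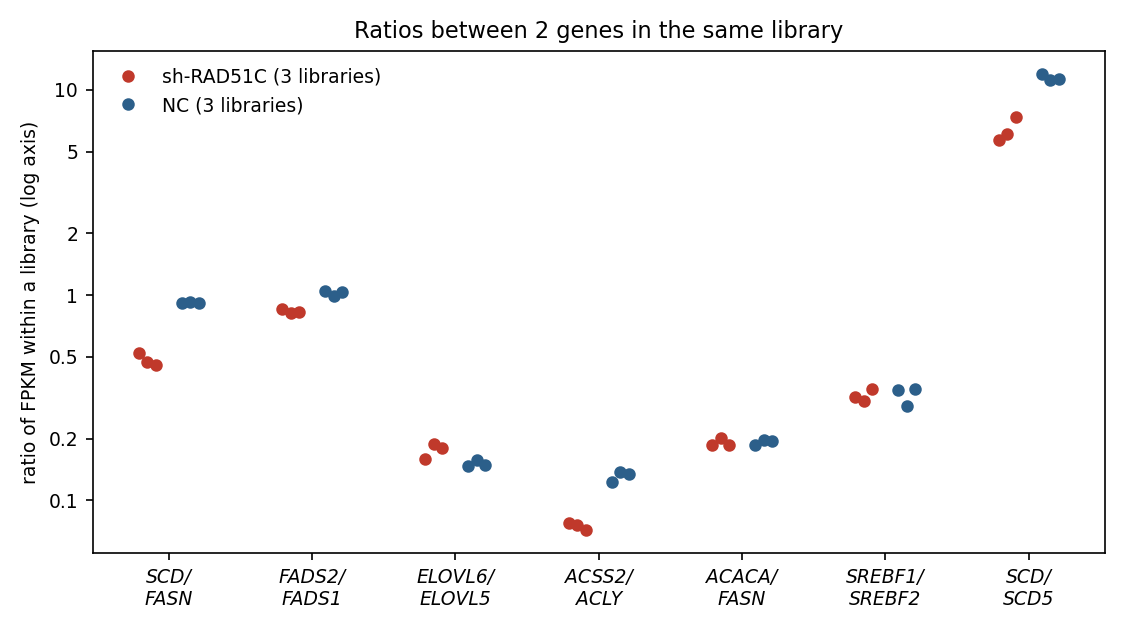
Ratio of the FPKM of 2 genes within each library (log axis), with the 3 sh-RAD51C libraries to the left of the 3 NC libraries in each pair. SCD to FASN falls to 0.456 to 0.522 in sh-RAD51C, against 0.912 to 0.931 in NC, whereas ACACA to FASN and SREBF1 to SREBF2 overlap.

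Genes that use or store fatty acids were divided. In the list of acyl-CoA synthetases 3 of 7 tested genes were higher (42.9%) and 1 lower (14.3%), beside 23.2% and 26.2% of all genes tested. The list's median log2 fold change was 0.14. SLC27A2, a very long chain acyl-CoA synthetase, held a mean of 13.1 FPKM in sh-RAD51C and 7.43 FPKM in NC, whereas the transporter and synthetase gene SLC27A1 held 1.11 FPKM in sh-RAD51C and 2.36 FPKM in NC. Of 18 tested genes of glycerolipid synthesis and lipid droplets 8 were lower (44.4%) and 4 higher (22.2%), beside the same 26.2% and 23.2% of all genes (median log2 fold change -0.08). The 8 lower genes had log2 fold changes from -0.42 to -0.12. The 4 higher genes, named because they had the smallest p of the list, were the monoacylglycerol lipase MGLL, the acyltransferases GPAT3 and AGPAT5, and the droplet coat gene PLIN2. Their log2 fold changes were 0.77, 0.54, 0.4 and 0.39 (largest limma adjusted p = 7.12e-05). MGLL held means of only 3.27 FPKM in sh-RAD51C and 1.5 FPKM in NC. Its log2 fold change ran from 0.35 to 1.13 over 16 alternatives. PLIN2 held 83.3, 75.3 and 74.6 FPKM in sh-RAD51C, against 61.2, 59.1 and 57.3 FPKM in NC.

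In the uptake and binding list 5 of 7 tested genes were lower (71.4%) and 1 higher (14.3%), beside 26.2% and 23.2% of all genes tested. The list's median log2 fold change was -0.36, and its difference from other genes was not tested. The fatty acid carriers FABP4 and FABP5 held means of 7.91 and 191 FPKM in sh-RAD51C and 47.5 and 258 FPKM in NC. MFSD2A, a transporter of lysophospholipids that carry polyunsaturated acids, held 10.4 FPKM in sh-RAD51C and 18.1 FPKM in NC, while the lipoprotein lipase gene LPL held 20.9 FPKM in sh-RAD51C and 15.3 FPKM in NC. These 4 genes passed the test (largest limma adjusted p = 1.7e-05, for FABP5).

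Of 18 tested genes of fatty acid oxidation 10 were lower and 3 higher, where 26.2% and 23.2% of all genes tested were, and the list's median log2 fold change was -0.14. Over 18 alternatives the lower count ran from 7 to 10 and the higher count from 2 to 3, and the difference from other genes was not tested. DECR1 and ECI1, which handle double bonds during oxidation, held means of 16 and 17.9 FPKM in sh-RAD51C and 23.4 and 22.5 FPKM in NC. CPT2, an enzyme of fatty acid entry into mitochondria, held 5.71 FPKM in sh-RAD51C and 7.55 FPKM in NC (log2 fold change -0.35, limma adjusted p = 0.000237). Among lipogenic transcription factors and AMPK subunits 4 of 19 tested genes were lower (21.1%), 3 higher (15.8%) and 12 not called (median log2 fold change -0.04). RXRA and SP1 were lower, at 32.3 and 13.8 FPKM in sh-RAD51C and 45.7 and 18.2 FPKM in NC, and PPARG, the adipogenic nuclear receptor, was higher, at 14.3 FPKM in sh-RAD51C and 11 FPKM in NC.

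The cholesterol synthesis genes, which SREBP-2 chiefly drives, had 19 of 20 tested genes lower (95%) and 0 higher, beside 26.2% and 23.2% of all genes tested. The list's median log2 fold change was -0.44, and its difference from other genes was not tested. HMGCS1, which makes the HMG-CoA of this route, held a mean of 11.7 FPKM in sh-RAD51C and 22.2 FPKM in NC (log2 fold change -0.88, limma adjusted p = 4.32e-07).

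**Figure D4:**
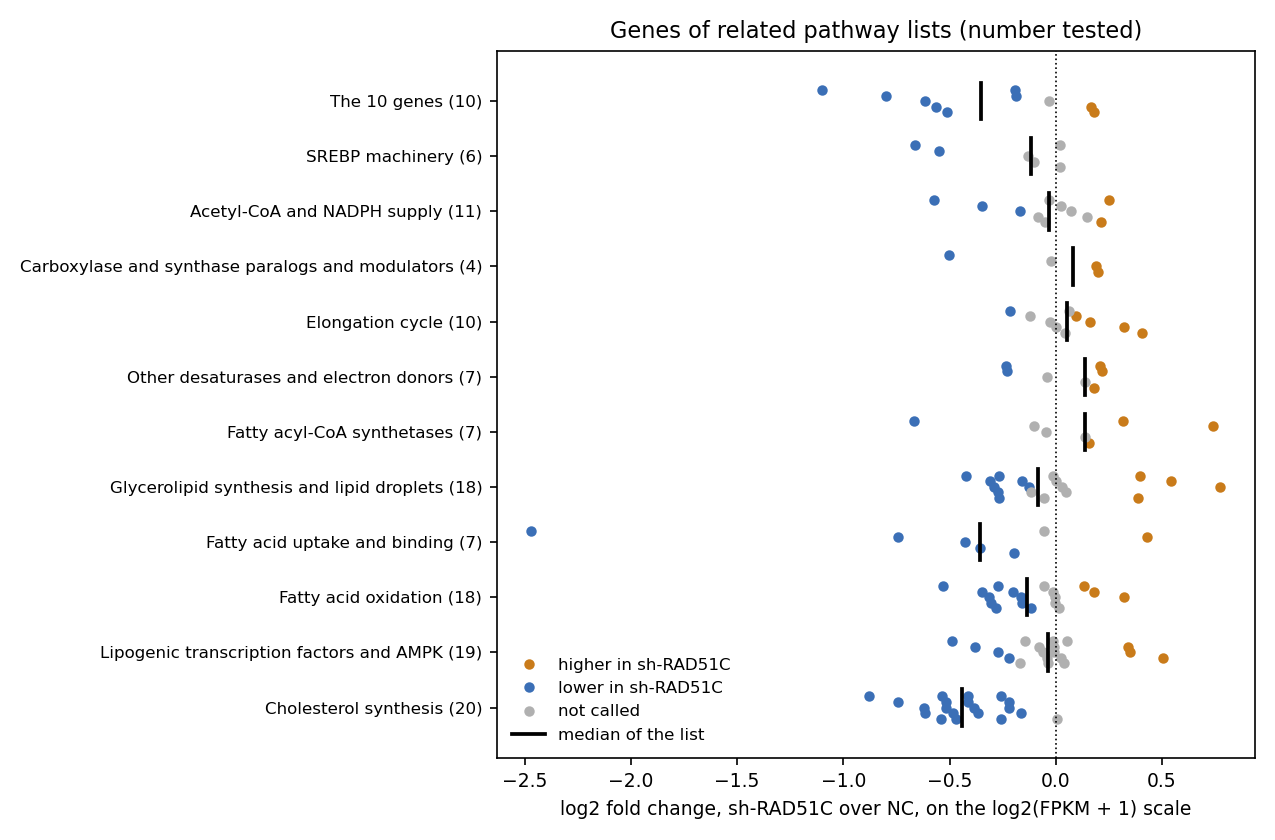
Log2 fold change, sh-RAD51C over NC, of every tested gene of each pathway list (1 point a gene, coloured by its call at an adjusted p under 0.05 in limma), with the median of the list as a vertical bar. The 10 genes have a median of -0.35 and cholesterol synthesis genes one of -0.44. Medians lie above 0 for elongation, other desaturases, acyl-CoA synthetases, and the list of carboxylase and synthase paralogs and modulators.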

How the data were processed

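The authors deposited FPKM values per gene for 6 libraries, 3 of sh-RAD51C and 3 of NC. R 3.2.0, DESeq2 and the build hg38 are named in the submitters' processing notes without a role, with the aligner, counter, strand setting and annotation left as not given in the sources used here. Genes averaging at least 1 FPKM over all libraries were tested on log2(FPKM + 1) in limma 3.58.1 under R 4.3.3, using eBayes with a variance trend and Benjamini-Hochberg adjustment over all 11152 genes kept. Calls needed an adjusted p under 0.05, and intervals cover 95%. The procedure was checked on simulated counts with few changed genes, no length trend and changes larger than those of most members. That check does not cover small changes or a library with a length trend.

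Depths were inferred: the steps between FPKM values gave relative library totals, gene lengths and whole reads (tolerance 0.001) for 11151 of the genes kept, and the inferred length equalled the RefSeq genomic length for 248 of them. Gene coordinates come from GENCODE 29 on GRCh38, and promoter windows from RefSeq on GRCh38.p14. Ratios were compared by exact permutation tests over the libraries.

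The members and the 12 gene lists were chosen with earlier results of these data known. Named genes are the members, RAD51C, SREBP regulators, paralogs, cell type markers and up to 4 genes a list with the smallest p. RAI1 and FEN1 are named for their exon overlap, chosen after their values were seen. Alternatives covered pseudocounts, filters, scalings, the variance model, limma voom on inferred reads, a replicate block and omission of each library. Removal of length and GC trends, and the alternatives for genes and lists beyond the members, were chosen after seeing the data. No other per-sample column was present (0 columns).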

Additional observations from a re-analysis of the deposited data

How the results depend on the processing

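RAD51C passed in all 17 alternatives, with log2 fold changes from -2.12 to -1.2. The number of the 10 genes called lower was 5 to 7 over 18 alternatives, with 5 where no filter on low values was used. The number called higher was 1 without that filter and 1 at an adjusted p under 0.01, and 1 to 2 when a library was left out. FASN lost its call only without the filter (limma adjusted p = 0.0663), and ACACA also with median ratio scaling (0.0596) and without a variance trend (0.0504). Without the filter the adjusted p in limma was 0.125 for ACACA and 0.101 for ELOVL6. That fit held 23024 genes and estimated the variance trend anew over them. In it RAD51C had a limma adjusted p of 0.000113, against 7.16e-09 with the filter. Genes that were not called had signs that turned. The log2 fold change was 0.0049 for ELOVL5 and 0.0063 for MECR with median ratio scaling, 0.046 for ELOVL7 and 0.0039 for MECR with quantile normalization, -0.00503 for ELOVL4 with upper quartile scaling, and -0.038 for INSIG2 and -0.051 for ELOVL4 without length and GC trends. With a library left out it ran from -0.046 to 0.00023 for ELOVL5, -0.013 to 0.051 for SCAP, -0.0044 to 0.041 for INSIG2, -0.0022 to 0.104 for ELOVL2, -0.029 to 0.049 for ELOVL4 and -0.077 to 0.00597 for MECR. The cause was not tested. Of the pathway lists, the supply list had 1 higher gene and the glycerolipid list 5 lower without the filter, against 2 and 8, and with a minimum mean of 5 FPKM the glycerolipid list had 5 lower and the acyl-CoA synthetase list 0. Other desaturases had 1 lower, against 2, with quantile normalization or median ratio scaling. The carboxylase list had 0 higher without the filter and 1 with the minimum of 5 FPKM, against 2, and the elongation list 2 lower without a variance trend, against 1. Without length and GC trends the SREBP list had 4 lower, against 2, and the acyl-CoA synthetases 2, against 1. Same-numbered libraries of both groups correlated at 0.19, 0.026 and 0.091 in their deviations from the group means. For sh-RAD51C replicates 1 and 3 the same-numbered NC library correlated best. For sh-RAD51C replicate 2 it was NC replicate 3 (0.11). As all these correlations were small, the numbers were not taken as pairs. With the replicate block 7 genes were lower and 2 higher, MBTPS2 passed (log2 fold change -0.13, limma adjusted p = 0.0376, against 0.127 without it) and no other named gene changed its call, and over all genes 2968 were lower and 2601 higher, beside 2922 and 2589 without it. With 3 libraries a group, small differences such as that of ELOVL5 are limited by the spread between libraries more than by depth.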
